A study of Mus musculus with 2 samples.

Results

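The genes described here were measured in 1 heart section of a control mouse and 1 heart section of a TOP2B transgenic mouse. Apart from Psmc3ip, which only shares their name, they encode the proteasome, its activators and its assembly factors. They were chosen by name, as all mouse symbols that begin with Psma, Psmb, Psmc, Psmd, Psme, Psmf or Psmg followed by a digit and that had at least 20 UMIs (unique molecular identifiers, each marking 1 captured probe molecule) over both sections. Of 48 such symbols, 47 passed, out of 15236 genes that passed the same minimum and 19465 genes listed. The gene closest above the minimum was Psma8, with 23 control and 12 transgenic UMIs, and the gene below it was Psmb11, with 8 and 3 UMIs.

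The proteasome is the protease that degrades ubiquitin-tagged proteins. Its 20S core is a barrel of alpha rings, which form the gate, and beta rings, which hold the active sites. The 19S cap sits on the core and has a base, with the ATPases that unfold the substrate, and a lid, which removes ubiquitin. Interferon-gamma can induce the immunoproteasome, in which Psmb8, Psmb9 and Psmb10 replace the constitutive catalytic subunits Psmb5, Psmb6 and Psmb7, and in which Psme1 and Psme2 form an alternative cap. In heart muscle the proteasome takes part in the turnover of sarcomere proteins.

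Visium CytAssist was used, an assay in which gene probes hybridized to formalin-fixed, paraffin-embedded tissue are taken up by a grid of barcoded spots. Each spot can hold several cells of different types. The control mouse was α-MHC-MerCreMer+/−, in which the α-MHC promoter drives a tamoxifen-inducible Cre in cardiomyocytes. The transgenic mouse was α-MHC-MerCreMer+/−TOP2B LSL/− and carried, beside the same Cre, a human TOP2B cDNA that is silent until Cre removes a STOP cassette. Both mice, 6 weeks old by the methods, received 1 intraperitoneal dose of 80 mg/kg tamoxifen, so that Cre and tamoxifen were shared by both groups. The sections were 5 μm thick, and the time from tamoxifen to collection was not given in the sources used here. With 1 section per genotype, no test between genotypes was possible, and a difference between the sections cannot be told apart from a difference between these 2 animals or their section planes.

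Endogenous Top2b had 1531 control and 1318 transgenic UMIs, a log2 ratio of CPM (UMIs per 1000000 UMIs of the section) of -0.07 (95% interval -0.17 to 0.04), and whether the mouse probe captures the human transgene is not given in the sources used here. The control section had 1256 spots and 14376300 UMIs, and the transgenic section had 924 spots and 12953389 UMIs. The sections shared 725 barcodes, which belong to the fixed set of the array. All 10 cardiomyocyte markers were detected, and their summed level was 53352 CPM in control and 33953 CPM in transgenic tissue, with log2 ratios from -1.77 for Mb to -0.00 for Tpm1. Fibroblast markers summed to 1544 and 4505 CPM, macrophage markers to 314 and 621 CPM, and endothelial markers to 919 and 914 CPM. The 8 lymphocyte markers above the minimum summed to 21.3 and 21.0 CPM. Erythroid markers summed to 2145 and 20389 CPM, and 54 transgenic spots against 8 control spots had at least 10% of their UMIs in erythroid markers. In bulk spots, fewer cells of a type and less RNA per cell cannot be told apart, and the part of these marker differences in the results below was not tested. All log2 ratios below are transgenic over control, and all intervals are exact 95% intervals that cover counting error only. Probe numbers differ between genes, so that no level of one gene is set against another gene's level.

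The promoters below are shown because they are the immunoproteasome genes that held a motif match, together with, of the genes that held one, the 19S gene of highest ratio and the gene of lowest ratio. Of the 47 genes, 40 were matched to RefSeq promoter windows of build GRCm38.p6, which run from 250 bases before to 50 bases after the start site. Psmc3, Psmd7, Psmd3, Psmb7, Psmb2, Psma8 and Psmg2 were not matched. Capitals mark the matches, on either strand, to 4 motifs. TGACNNNGC is the core of the antioxidant response element, which NRF-type factors bind. TTCNNNGAA is the gamma-activated site, an element of genes that interferon-gamma induces. The interferon-stimulated response element was searched as GAAA, any 2 bases, GAAA, and CCAAT is the CCAAT box.
Psmb8, chr17:34197945-34198244, plus strand: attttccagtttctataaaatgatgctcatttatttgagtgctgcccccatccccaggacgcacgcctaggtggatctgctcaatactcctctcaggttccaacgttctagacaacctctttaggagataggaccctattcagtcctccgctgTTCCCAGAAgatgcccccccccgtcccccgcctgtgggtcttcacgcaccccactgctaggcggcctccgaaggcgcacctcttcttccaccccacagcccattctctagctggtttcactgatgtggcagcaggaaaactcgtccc
Psmb9, chr17:34187281-34187580, minus strand: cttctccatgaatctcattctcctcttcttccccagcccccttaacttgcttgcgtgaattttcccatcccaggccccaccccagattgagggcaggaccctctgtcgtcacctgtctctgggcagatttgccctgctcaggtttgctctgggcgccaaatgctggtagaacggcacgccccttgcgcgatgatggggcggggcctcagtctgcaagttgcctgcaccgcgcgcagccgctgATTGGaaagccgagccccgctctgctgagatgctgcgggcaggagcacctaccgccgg
Psme1, chr14:55578244-55578543, plus strand: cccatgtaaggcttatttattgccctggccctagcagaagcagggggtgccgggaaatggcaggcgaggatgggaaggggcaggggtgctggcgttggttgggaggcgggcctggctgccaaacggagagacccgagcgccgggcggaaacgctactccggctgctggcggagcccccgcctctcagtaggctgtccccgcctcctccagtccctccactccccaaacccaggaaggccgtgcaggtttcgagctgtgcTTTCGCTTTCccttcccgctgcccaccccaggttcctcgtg
Psmd4, chr3:95042565-95042864, minus strand: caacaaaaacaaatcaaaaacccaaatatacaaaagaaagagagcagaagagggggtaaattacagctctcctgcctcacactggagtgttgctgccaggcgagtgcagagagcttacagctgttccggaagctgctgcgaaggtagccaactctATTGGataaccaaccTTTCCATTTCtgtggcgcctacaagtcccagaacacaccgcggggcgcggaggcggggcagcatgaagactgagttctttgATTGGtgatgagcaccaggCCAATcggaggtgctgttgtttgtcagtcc
Psmc3ip, chr11:101095386-101095685, minus strand: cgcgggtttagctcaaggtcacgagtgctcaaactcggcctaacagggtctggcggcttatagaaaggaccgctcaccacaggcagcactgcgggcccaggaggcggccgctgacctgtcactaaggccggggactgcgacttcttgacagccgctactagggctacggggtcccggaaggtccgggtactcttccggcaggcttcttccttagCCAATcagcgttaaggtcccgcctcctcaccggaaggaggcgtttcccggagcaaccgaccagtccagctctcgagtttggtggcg
Psmb8 held a gamma-activated site 97 bases before its start site. Psme1 held an interferon-stimulated response element on the reverse strand just after its start site, and Psmd4 held the same element 80 bases before its start site together with 3 CCAAT boxes. Psmb9 and Psmc3ip held 1 CCAAT box each. The windows of Psmb10, Psme2 and Psmd8 held no match to these letters. The antioxidant response element core was found for 6 of the 40 matched genes (15%), namely Psmb5, Psmb6, Psmc6, Psmd12, Psmd9 and Psme4. It was in 12.4% of all 32851 windows. The interferon-stimulated response element was found for 5 of 40 genes (12.5%) and in 3.44% of windows. The gamma-activated site was found for 3 of 40 genes (7.5%) and in 8.30% of windows, and the CCAAT box for 14 of 40 (35%) and in 37.4%. A gene was counted if any of its windows matched, while windows were counted singly, so that shares of genes and of windows are not like for like. The 5 genes with the interferon-stimulated response element were Psmb3, Psmd4, Psmd9, Psme1 and Psmg4, which belong to the core, the cap, the assembly factors and the immunoproteasome. A match describes the letters of these windows and does not show that a factor binds there.

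The proteasome genes together had a slightly higher CPM in the transgenic section, a difference that depended on the scaling, and their groups differed. The 19S cap genes chosen by name had a higher sum in the transgenic section, mostly through 4 of them. The 20S core genes differed little, and the immunoproteasome genes stood level or lower. The 47 genes took 80238 of the control UMIs (0.558%) and 81554 of the transgenic UMIs (0.630%). Their summed level was 5581 CPM in the control section, where 4 quadrants of the tissue ranged from 5561 to 5625 CPM. It was 6296 CPM in the transgenic section, with quadrants from 6224 to 6412 CPM. The quadrants of the sections did not overlap, and the summed log2 ratio was 0.17 (0.16 to 0.19). It was 0.02 with TMM or DESeq2 factors, which scale the sections by genes in general, and 0.09 with totals that left out the 50 most abundant genes. The DESeq2 factors came out as 1 for both sections, so that ratios with them are ratios of the UMIs as counted. The median ratio of the genes turned to -0.03 with either set of factors.

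Most genes had ratios above 1 between these sections, and the proteasome genes did not stand out from them as a whole. The median log2 ratio of the 47 genes was 0.12, which was 0.08 below the median of 0.20 over all 15236 genes. It was also below the 0.25 of the 12384 other genes in their range of mean CPM. That range was wide, from 1.26 to 422 CPM, and not matched in abundance. Other genes in the narrower ranges of the core and of the beta genes had medians of 0.17 and 0.09. A ratio above 1 was seen for 27 of 47 (57.4%), against 63.2% of all genes. A ratio of 1.5 or more was seen for 4 genes (8.51%), against 27.4% of all genes. They were Psmd8, Psmd4, Psmd13 and Psmc4, and all of them belong to the 19S cap. A level lower by 1.5-fold or more was seen for 5 genes (10.6%), against 12.9% of all genes, namely Psmc3ip, Psmg2, Psma8, Psmg1 and Psme2. All transgenic quadrants lay above all control quadrants for 18 genes (38.3%), against 30.4% of all genes. All lay below for 7 genes (14.9%), against 13.1%. Counting error parts quadrants less readily for genes with few UMIs, and the quadrant shares of genes in the same range of mean CPM were not computed. Fewer proteasome genes than genes in general passed 1.5-fold upward, while the counts downward and by quadrants were nearer to the background. When the sections were scaled by TMM or DESeq2 factors, which lowered all ratios by 0.16 or 0.15 on the log2 scale, a ratio above 1 was seen for 20 or 22 of the 47 genes. The median of all genes was 0.05 with either set of factors, so that most genes still had ratios above 1.

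**Figure D1:**
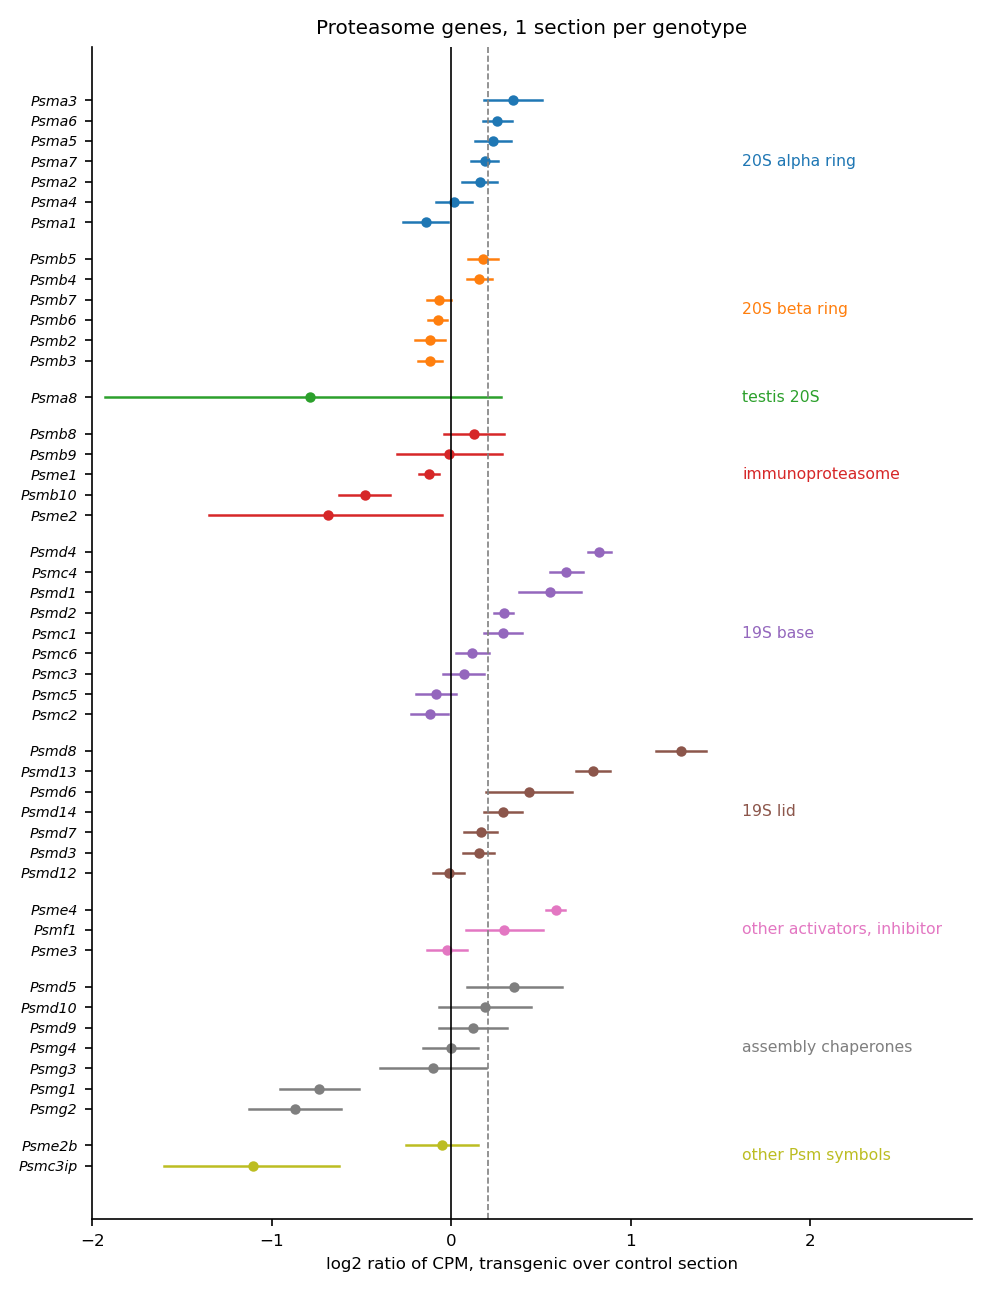
Log2 ratio of CPM, transgenic over control section, of the 47 proteasome genes by their part of the complex. Points are ratios, bars are exact 95% intervals that cover counting error only, the solid line is 0 and the dashed line is the median of all genes, 0.20. The 4 genes farthest to the right, Psmd8, Psmd4, Psmd13 and Psmc4, are all 19S genes, and no immunoproteasome gene lies beyond the dashed line.

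The constitutive 20S core was present at almost the same CPM in both sections, and its alpha ring had a higher ratio than its beta ring. Psmb1 was not analysed here, which left 7 alpha and 6 beta genes. The 13 genes summed to 2359 CPM in the control (quadrants 2337 to 2381) and 2435 CPM in the transgenic section (quadrants 2363 to 2508). These quadrants overlapped, and the summed log2 ratio of 0.05 (0.02 to 0.07) turned to -0.11 with TMM factors, -0.10 with DESeq2 factors and -0.04 with totals that left out the 50 most abundant genes. The median of the 13 genes was 0.16, against 0.17 for the 3268 other genes in their range of mean CPM. Ratios ran from -0.14 to 0.34, a narrower span than in the 19S, immunoproteasome and chaperone groups.

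The 7 alpha genes, which form the gated outer rings, summed to 826 and 923 CPM, a log2 ratio of 0.16 (0.12 to 0.20) that was 0.00 with TMM and 0.01 with DESeq2 factors. Ratios were above 1 for 6 of them and below 1 for Psma1, against 63.2% above 1 among all genes. Psma3 was the highest, with 41.0 CPM in control and 52.1 CPM in transgenic tissue and a log2 ratio of 0.34 (0.18 to 0.51). Psma6 followed with 164 and 196 CPM and a log2 ratio of 0.26 (0.18 to 0.34). For both genes every transgenic quadrant lay above every control quadrant. Psma1 was the lowest of the core, at 78.9 and 71.4 CPM with a log2 ratio of -0.14 (-0.27 to -0.02), and its quadrants overlapped.

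The 6 beta genes, which form the catalytic rings, summed to 1533 and 1513 CPM, a log2 ratio of -0.02 (-0.05 to 0.01) that was -0.18 with TMM and -0.17 with DESeq2 factors. The catalytic subunits did not share a direction. Psmb5, which carries the chymotrypsin-like site, had 2340 control UMIs (163 CPM) and 2381 transgenic UMIs (184 CPM), a log2 ratio of 0.18 (0.09 to 0.26), and its quadrants did not overlap. Psmb6, which carries the caspase-like site, had 5908 and 5050 UMIs (411 and 390 CPM), a log2 ratio of -0.08 (-0.13 to -0.02). Psmb7, which carries the trypsin-like site, had 3910 and 3358 UMIs (272 and 259 CPM), a log2 ratio of -0.07 (-0.14 to -0.00). The quadrants of Psmb6 and of Psmb7 overlapped between the sections. Psmb3, a structural subunit, was the lowest beta gene by a small margin, at 266 and 244 CPM with a log2 ratio of -0.12 (-0.19 to -0.05). It and Psmb2 were the beta genes whose transgenic quadrants all lay below the control quadrants. Ratios used a floor of 3 UMIs per section, which corresponds to 0.209 CPM for the control and 0.232 CPM for the transgenic mouse. Psma8, a testis-specific alpha subunit, lay above this floor but had only 23 control and 12 transgenic UMIs. Its log2 ratio of -0.79 had an interval from -1.93 to 0.28.

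The 19S cap genes chosen by name stood higher in the transgenic section than the core genes did, and 4 of them made up most of the difference, but the sum depended on whether Sem1, a small and abundantly counted lid subunit, was included. By the name rule the cap holds 9 base and 7 lid genes here. Psmd11 was not analysed here, and the cap subunits Sem1 and Adrm1, whose symbols the rule does not match, were measured and are given with and without these genes. The 16 genes summed to 1980.5 CPM in the control (quadrants 1953 to 2021) and to 2525 CPM in the transgenic section (quadrants 2463 to 2581), a log2 ratio of 0.35 (0.33 to 0.37). The quadrants did not overlap, and the ratio was 0.19 with TMM, 0.20 with DESeq2 factors and 0.26 without the 50 most abundant genes. Ratios were above 1 for 13 genes and below 1 for 3, against 63.2% above 1 among all genes. In 11 of the 16 every transgenic quadrant lay above every control quadrant, against 30.4% of all genes, a share that includes genes with far fewer UMIs. With TMM factors ratios were above 1 for 10 of the 16, where the median of all genes was 0.05. The median of 0.29 compares with 0.20 for the 5819 other genes in the same range of mean CPM, so that 9 of the 16 lay above the median of all genes. Sem1 went the other way, with 12894 control UMIs (897 CPM) and 8444 transgenic UMIs (652 CPM), a log2 ratio of -0.46 (-0.50 to -0.42), and all its transgenic quadrants lay below the control quadrants. Adrm1, a ubiquitin receptor of the cap, had 31 and 20 UMIs and a log2 ratio of -0.48 (-1.37 to 0.38). With Sem1 and Adrm1 the 18 cap genes summed to 2879.5 and 3178 CPM, a log2 ratio of 0.14 (0.12 to 0.16), which was -0.01 with TMM and with DESeq2 factors. Their median was 0.22, with 13 of 18 ratios above 1.

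**Figure D2:**
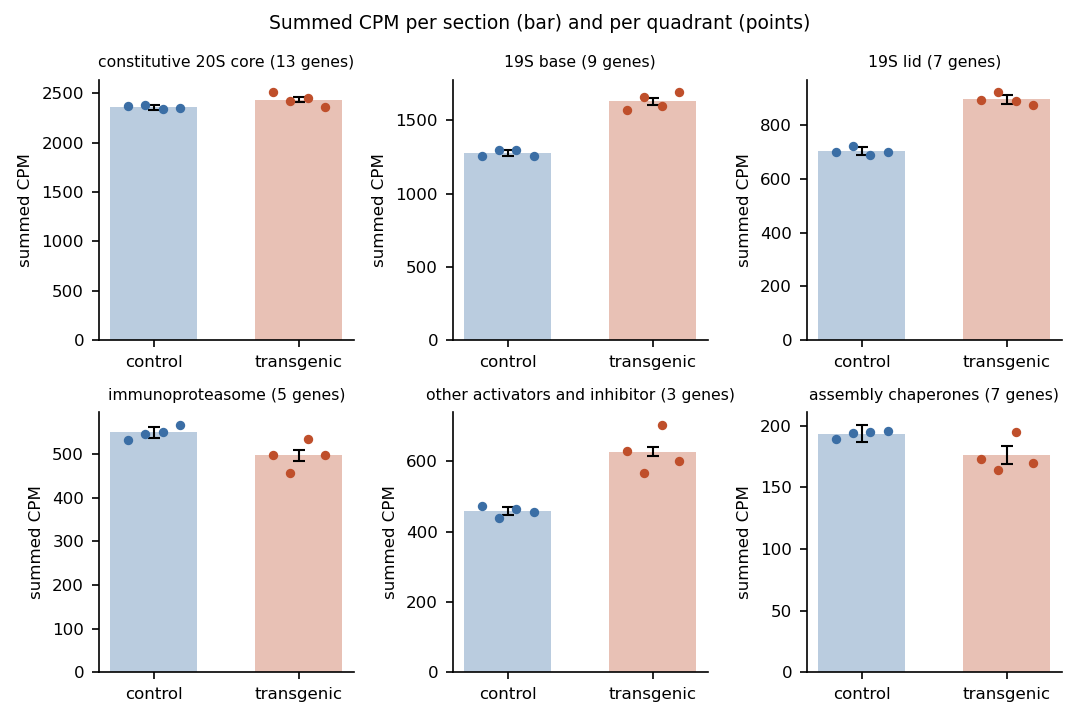
Summed CPM of 6 groups of proteasome genes in the control (blue) and transgenic (red) section. Bars are section values with exact Poisson 95% intervals and points are the 4 quadrants of each section, which are parts of 1 section and not replicates. The quadrants of the 19S base, the 19S lid and the other activators and inhibitor stand apart between sections, and those of the 20S core overlap.

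Psmd8, a lid subunit, had the highest ratio of all 47 genes. It had 612 control UMIs (42.6 CPM, quadrants 36.9 to 47.4) and 1336 transgenic UMIs (103 CPM, quadrants 93.9 to 114), a log2 ratio of 1.28 (1.14 to 1.42). Psmd4, a ubiquitin receptor of the base, had 3065 control UMIs (213 CPM, quadrants 204 to 225) and 4891 transgenic UMIs (378 CPM, quadrants 362 to 389), a log2 ratio of 0.82 (0.76 to 0.89). These genes stood far apart between the sections in every quadrant. Psmd13, a lid subunit, had 1426 UMIs (99.2 CPM) and 2221 UMIs (171 CPM), a log2 ratio of 0.79 (0.69 to 0.89). Psmc4, an ATPase of the base, had 1677 UMIs (117 CPM) and 2355 UMIs (182 CPM), a log2 ratio of 0.64 (0.55 to 0.73). Psmc4 was below 1.5-fold with TMM factors, at 0.48, with DESeq2 factors, at 0.49, without the 50 most abundant genes, at 0.55, in cardiomyocyte-rich spots, at 0.55, and as a mean over spots, at 0.58.

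Psmd8, Psmd4, Psmd13 and Psmc4 accounted for 362 of the 544 CPM by which the 19S sum was higher, or 66.6%. The other 12 genes summed to 1509 and 1691 CPM, a log2 ratio of 0.16 (0.14 to 0.19), close to the sum of the alpha ring. The median of these 12 genes was also 0.16, below the median of 0.20 over all genes. These 4 genes were separated by their ratio, and the split is a description only. Psmd14, the deubiquitinating enzyme of the lid, had 98.8 and 121 CPM, a log2 ratio of 0.29 (0.18 to 0.39). Psmd2, a scaffold of the base that receives substrates, had 379 and 464 CPM, also with a log2 ratio of 0.29 (0.24 to 0.35). Psmd1, the other large scaffold, had 33.7 and 49.4 CPM and a log2 ratio of 0.55 (0.38 to 0.72). At the low end stood ATPases of the same ring as Psmc4. Psmc2 had 120 and 110.1 CPM with a log2 ratio of -0.12 (-0.22 to -0.02), and Psmc5 had 98.6 and 93.1 CPM with a log2 ratio of -0.08 (-0.20 to 0.03). The 6 ATPase genes of the ring, whose proteins assemble in equal numbers, thus spanned ratios from -0.12 to 0.64.

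The balance between cap and core could be read within each section, where no scaling between sections enters. Of all UMIs of the 19S and 20S genes, 45.6% (45.2 to 46.0) were 19S UMIs in the control and 50.9% (50.5 to 51.3) in the transgenic section. Control quadrants ranged from 45.2% to 46.0% and transgenic quadrants from 49.6% to 52.1%, without overlap. With Sem1 and Adrm1 counted in the cap the shares were 55.0% (54.6 to 55.3) and 56.6% (56.3 to 57.0), and the quadrants, from 54.7% to 55.4% and from 55.3% to 57.5%, overlapped. In spots rich in cardiomyocyte markers the transgenic share was 50.1%. Without Psmd8, Psmd4, Psmd13 and Psmc4 the share was 39.0% in the control and 41.0% in the transgenic section. These shares depend on the probes of each gene and are no stoichiometry.

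**Figure D3:**
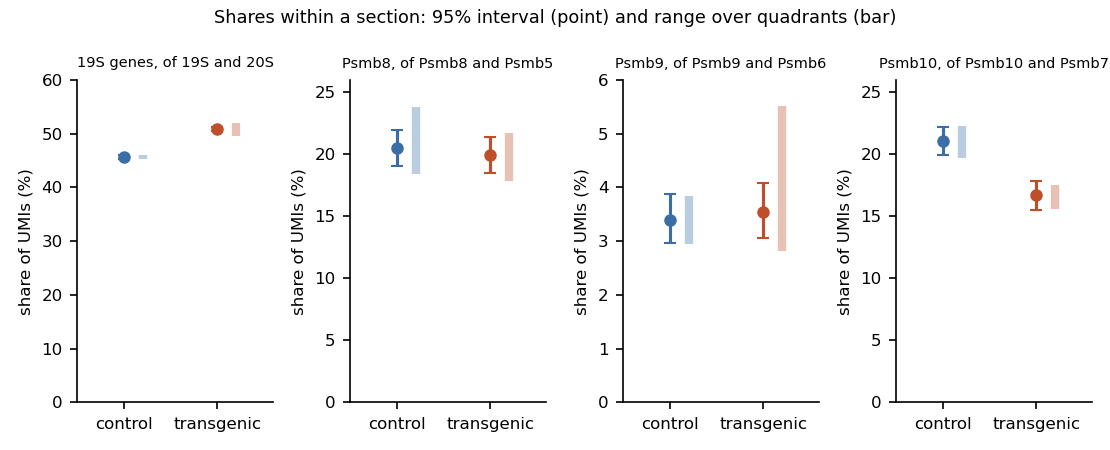
Shares of UMIs within each section, in percent. The first panel gives 19S genes among 19S and 20S genes, the others each immunosubunit among itself and the constitutive subunit whose place it takes. Points are sections with Clopper-Pearson 95% intervals, and pale bars are the range over 4 quadrants. The 19S share was 45.6% and 50.9% (55.0% and 56.6% with Sem1 and Adrm1, which are not drawn), and the Psmb10 share 21.1% and 16.7%.

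The immunoproteasome genes stood level or lower in the transgenic section, where macrophage markers summed to 621 CPM against 314 CPM in the control. The 5 genes summed to 549.5 CPM in the control (quadrants 532 to 567) and 497 CPM in the transgenic section (quadrants 458 to 535), a log2 ratio of -0.14 (-0.19 to -0.10). These quadrants overlapped narrowly. The median was -0.12, against 0.24 for the 10503 other genes in the same range of mean CPM, and none of the 5 lay above the median of all genes. That range, from 3.33 to 399 CPM, was not matched in abundance, and the median is the ratio of Psme1, at its upper end. The sum was -0.30 with TMM and DESeq2 factors and -0.23 without the 50 most abundant genes. Psme1 held most of the UMIs of the list.

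Psmb8, the immunosubunit that replaces Psmb5, had 603 control UMIs (41.9 CPM, quadrants 37.5 to 46.9) and 593 transgenic UMIs (45.8 CPM, quadrants 41.5 to 49.8), a log2 ratio of 0.13 (-0.04 to 0.29) that turned to -0.03 with TMM and -0.02 with DESeq2 factors. Psmb9, which replaces Psmb6, had 208 UMIs (14.5 CPM, quadrants 12.2 to 16.7) and 186 UMIs (14.4 CPM, quadrants 11.3 to 22.0), a log2 ratio of -0.01 (-0.30 to 0.28). The quadrants of both genes overlapped, and the counts of Psmb9 could not show a difference of the size seen for Psmb8. Psmb10, which replaces Psmb7, had 1044 UMIs (72.6 CPM, quadrants 66.4 to 79.6) and 673 UMIs (52.0 CPM, quadrants 47.4 to 56.9), a log2 ratio of -0.48 (-0.63 to -0.34). It was the one immunosubunit whose transgenic quadrants all lay below the control quadrants, and it lay between -0.64 and -0.44 under every alternative tried.

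Within the pairs of catalytic genes, Psmb10 again stood apart. Psmb10 took 21.1% (19.9 to 22.2) of the UMIs of Psmb10 and Psmb7 in the control and 16.7% (15.6 to 17.9) in the transgenic section, with quadrants from 19.7% to 22.3% and from 15.6% to 17.5%. Psmb8 took 20.5% (19.04 to 22.0) and 19.9% (18.5 to 21.4) of the UMIs of Psmb8 and Psmb5. Psmb9 took 3.40% (2.96 to 3.89) and 3.55% (3.07 to 4.09) of the UMIs of Psmb9 and Psmb6. Only the Psmb10 pair had quadrants that did not overlap. Over all 6 catalytic genes the immunosubunits took 13.2% (12.7 to 13.8) and 11.9% (11.3 to 12.4), and in cardiomyocyte-rich transgenic spots 10.8%.

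Psme1 and Psme2 encode the subunits of the 11S cap. Psme1 had 5986 control UMIs (416 CPM, quadrants 402 to 431) and 4954 transgenic UMIs (382 CPM, quadrants 345 to 423), a log2 ratio of -0.12 (-0.18 to -0.07) with quadrants that overlapped. Psme2 had 59 UMIs (4.10 CPM) and 33 UMIs (2.55 CPM), a log2 ratio of -0.69 (-1.35 to -0.05), which rests on few counts. Psme2b, a gene nearly identical to Psme2 in sequence, had 438 and 381 UMIs and a log2 ratio of -0.05 (-0.25 to 0.15). How the probes divide molecules between Psme2 and Psme2b is uncertain, and so is the value of each.

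The remaining activators and the inhibitor, 3 genes, summed to 458 and 628 CPM, a log2 ratio of 0.46 (0.41 to 0.50) that was 0.30 with TMM and 0.31 with DESeq2 factors, and most of their UMIs were of Psme4. Psme4 encodes PA200, a nuclear cap that promotes the degradation of acetylated histones. It had 4815 control UMIs (335 CPM, quadrants 319 to 350.2) and 6494 transgenic UMIs (501 CPM, quadrants 422 to 576), a log2 ratio of 0.58 (0.53 to 0.64). Its quadrants stood apart, and its ratio of 1.497 lay just under the 1.5-fold limit, which it passed in cardiomyocyte-rich spots, at a log2 ratio of 0.68, and in spots under 10% erythroid UMIs, at 0.60. Psme3, which encodes a nuclear activator, had 98.6 and 97.1 CPM and a log2 ratio of -0.02 (-0.13 to 0.09). Psmf1, which encodes the regulator PI31, had 24.3 and 29.9 CPM and a log2 ratio of 0.30 (0.08 to 0.51), with overlapping quadrants.

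The assembly chaperones were split, with the alpha-ring chaperones Psmg1 and Psmg2 lower in the transgenic section and the base chaperones level or higher. The 7 genes summed to 194 and 176 CPM (log2 ratio -0.13, -0.22 to -0.05), and their median of -0.00 compares with 0.24 for the 4298 other genes in their range of mean CPM. Psmg2 had 385 control UMIs (26.8 CPM, quadrants 26.3 to 27.4) and 190 transgenic UMIs (14.7 CPM, quadrants 13.7 to 15.5), a log2 ratio of -0.87 (-1.13 to -0.61). Psmg1 had 493 UMIs (34.3 CPM, quadrants 33.0 to 35.3) and 267 UMIs (20.6 CPM, quadrants 19.3 to 22.8), a log2 ratio of -0.73 (-0.95 to -0.52). The proteins of this pair form a heterodimer that starts the alpha ring, and both genes lay below every control quadrant in every transgenic quadrant. Psmg4 and Psmg3, which encode the next pair, had log2 ratios of -0.00 (-0.16 to 0.15) and -0.10 (-0.40 to 0.19). Of the chaperones of the 19S base, Psmd5 had 15.8 and 20.1 CPM and a log2 ratio of 0.35 (0.09 to 0.61), Psmd10 one of 0.19 (-0.07 to 0.45) and Psmd9 one of 0.12 (-0.07 to 0.31). The quadrants of Psmg3, Psmg4, Psmd5, Psmd9 and Psmd10 overlapped.

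Psmc3ip shares the name pattern and is counted among the 47 genes, but encodes a factor of meiotic recombination that is no part of the proteasome. It had 124 control UMIs (8.63 CPM, quadrants 6.73 to 10.1) and 52 transgenic UMIs (4.01 CPM, quadrants 2.74 to 6.19). Its log2 ratio of -1.10 (-1.60 to -0.63) was the lowest of the 47 genes.

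Genes that bring substrates to the proteasome or modify it showed no common direction. Of 15 such partners, 8 had ratios above 1 and 7 below, with a median of 0.04. Among the 11677 other genes in their range of mean CPM, 66.6% had ratios above 1 and the median was 0.25. The sum of the partners stood at -0.17 (-0.19 to -0.14). Sem1 and Adrm1, described with the cap, are among the partners. Sem1 alone held 12894 of their 28248 control UMIs and 8444 of their 22647 transgenic UMIs, so that the sum leans on it. Ecpas, an adaptor that binds core and cap, was the lowest at -1.16 (-1.44 to -0.90), and Txnl1, a thioredoxin bound to the cap, the highest at 0.37 (0.24 to 0.50).

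The genes of the pathway that induces proteasome transcription stood level or higher by CPM, as most genes did between these sections. Nfe2l1 encodes NRF1, the factor that restores proteasome subunits when the proteasome is inhibited, and it had 363 and 432 CPM, a log2 ratio of 0.25 (0.20 to 0.31). The genes whose products release and process NRF1 were Vcp, the extracting ATPase, at 0.42 (0.39 to 0.46), Ngly1, the deglycosylating enzyme, at 0.69 (0.41 to 0.98), and Ddi2, the protease, at 0.03 (-0.13 to 0.20). Nfe2l2, which encodes the related NRF2, stood at 0.00 (-0.10 to 0.10). The small Maf partners of these factors had the highest ratios, with Maff at 20.3 and 82.7 CPM, a log2 ratio of 2.03 (1.84 to 2.22), and Mafk at 91.7 and 374 CPM, also 2.03 (1.94 to 2.12). All 7 genes had ratios of 1 or more by CPM, against 64.6% above 1 among the 7067 other genes in their range of mean CPM. Their median was 0.42, against 0.21 for those other genes. Relative to the median of all genes, Nfe2l1 stood at 0.05, Nfe2l2 at -0.20 and Ddi2 at -0.17. Nfe2l2 and Ddi2 were below 1 once the shift of 0.16 with TMM factors was taken off. The 6 proteasome genes with an antioxidant response element core in their promoter window included Psme4 at 0.58, Psmb5 at 0.18, Psmd9 at 0.12, Psmc6 at 0.12, Psmd12 at -0.01 and Psmb6 at -0.08.

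Within the control section the proteasome genes showed little spatial clustering. The deposited Moran's I, a score of spatial clustering that is near 0 without pattern, ran from -0.02 to 0.03 over the control values of the 47 genes, with a median of 0.00. In the transgenic section it ran from -0.01 to 0.36 with a median of 0.07, and Psme4 (0.36), Psmd2 (0.33) and Psmb6 (0.27) were the highest. The score was used as given, and it was not computed without the erythroid-rich spots described below. Other genes in the same range of mean CPM had a transgenic median of 0.02, and those in the higher range of the beta genes one of 0.19, next to 0.18 for the 6 beta genes themselves.

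Spots filled with erythroid RNA, most of which form 1 block inside the transgenic section, had a lower CPM in most proteasome groups. The 54 transgenic spots with at least 10% erythroid UMIs held 2.28% of the UMIs of the section, and their median erythroid share was 76.6%. They had 823 CPM of 20S genes and 1006 CPM of 19S genes, against 2473 and 2560 CPM in the other 869 spots. The other activators and inhibitor were not lower there, at 660 CPM (195 UMIs) against 628 CPM. Erythroid UMIs are part of the CPM total, so that a lower CPM of other genes in these spots follows from how they were chosen. The lower sums of core and cap describe nothing particular to the proteasome genes. Why the other activators and inhibitor were not lower was not tested. Without these spots, and the 8 such control spots, the summed log2 ratio was 0.07 for the 20S core, 0.37 for the 19S cap and -0.13 for the immunoproteasome, and the transgenic 19S share was 50.9%. The sums of core and cap were slightly farther from 0 without them and that of the immunoproteasome slightly nearer.

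Patterns over spots depended on these spots more. The index of dispersion, the variance of counts over spots divided by the variance that counting alone gives, was 1.58 for the transgenic 20S sum and 1.68 for the transgenic 19S sum over spots with at least 1000 UMIs. It was 1.21 and 1.34 without the erythroid spots, against 1.12 and 1.04 in the control section. Where shares vary between spots, the index rises with the counts per spot, which were higher in the transgenic section. The 19S sum had 22.7 control and 35.4 transgenic UMIs per spot, and Psme4 had 3.83 and 7.03. The index is thus not like for like between the sections. The correlation over spots of the 20S and 19S shares of UMIs was 0.53 over 921 transgenic spots and 0.16 over 868 spots without the erythroid ones, and it was 0.09 over 1249 control spots. Both shares have the same spot total as denominator, and spots of a section are not replicates. For Psme4 the index was 1.44 over control spots and 1.68 over transgenic spots, where it was 1.67 without the erythroid spots. For Psme3 it was 0.98 over control and 1.54 over transgenic spots, and it was not computed without the erythroid spots. In the control section Psme1 followed at 1.32 and Psmd2 at 1.23, and the median of the 47 genes was 1.04.

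**Figure D4:**
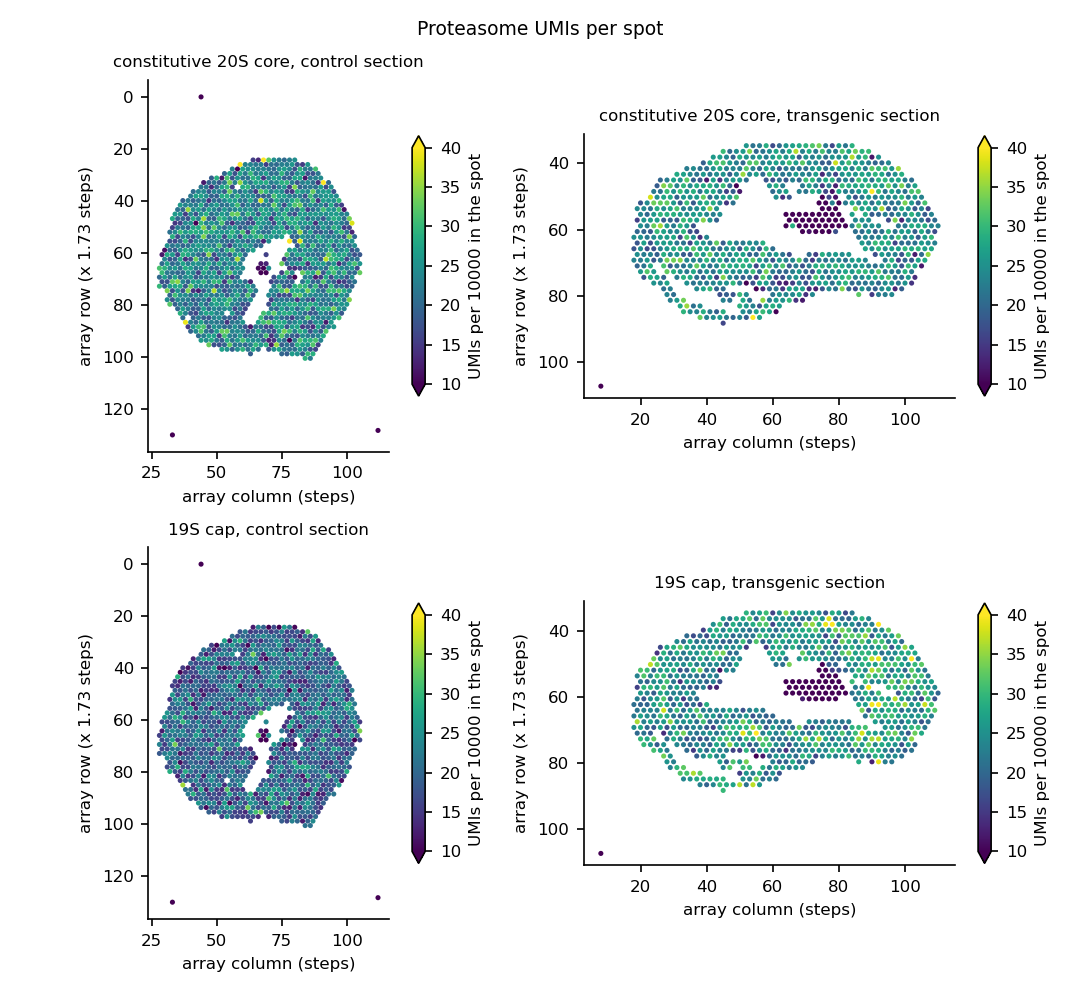
UMIs of the constitutive 20S core (top) and the 19S cap (bottom) per 10000 UMIs of each spot, drawn at the spots' positions on the array for the control (left) and transgenic (right) section. The colour scale runs from 10 to 40, with lower and higher values at its ends. The dark block inside the transgenic section holds most of the spots with at least 10% erythroid UMIs, and the other transgenic spots held 2560 CPM of the 16 19S genes, against 1981 CPM in the control spots.

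Where spots were ranked by their share of cardiomyocyte markers, the proteasome groups of the control section hardly differed between the richer and the poorer spots, with log2 ratios from -0.06 to 0.07. In the transgenic section Psme4 was richer in spots rich in cardiomyocyte markers, with 557 CPM against 445 CPM in the poorer spots, a log2 ratio of 0.32 (0.25 to 0.39). All genes had a median of -0.13 in that split. Psme1 stood at 409 and 356 CPM, a log2 ratio of 0.20 (0.12 to 0.28). Core genes were mixed, with Psmb7 at 0.24 (0.14 to 0.34), Psmb5 at 0.21 (0.09 to 0.33) and Psmb2 at -0.23 (-0.35 to -0.11). The 20S core as a whole had a log2 ratio of 0.04 (0.01 to 0.07) and the 19S cap one of -0.05 (-0.09 to -0.02). All rankings kept the 54 transgenic spots with at least 10% erythroid UMIs, which lower core and cap CPM where they fall. The rankings were not repeated without these spots, so that the sign of ratios this small is uncertain. The immunosubunits stood at 105 and 119 CPM with a log2 ratio of -0.18 (-0.33 to -0.03), an interval that holds the -0.13 of all genes. Psmb9 was the farthest of them, with 74 UMIs (11.4 CPM) in the richer and 112 UMIs (17.3 CPM) in the poorer spots, a log2 ratio of -0.60 (-1.05 to -0.17).

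Ranked by fibroblast or macrophage markers, the immunosubunits had ratios above 1 and Psme4 ratios below 1 in the transgenic section. All marker shares have the same spot total as denominator, so that these rankings and the cardiomyocyte ranking are not independent. Immunosubunits were higher in spots rich in fibroblast markers, by 0.23 (0.08 to 0.39), and in spots rich in macrophage markers, also by 0.23 (0.08 to 0.39), where all genes had medians of 0.17 and 0.11. Both intervals hold the median of all genes, so that the immunosubunits did not stand apart from genes in general. Psmb8 stood at 50.2 CPM in the macrophage-rich and 40.9 CPM in the macrophage-poor spots, a log2 ratio of 0.29 (0.06 to 0.54), and Psmb9 at 16.8 and 11.7 CPM, a log2 ratio of 0.52 (0.08 to 0.97). Psmb10, the immunosubunit with the largest difference between the sections, stood at 53.7 and 50.01 CPM, a log2 ratio of 0.10 (-0.12 to 0.33). The 19S cap was higher by 0.12 (0.09 to 0.16) in fibroblast-rich spots, below the median of all genes. Psmd8 had a log2 ratio of 0.31 (0.15 to 0.47) in that split and Psmc4 one of 0.25 (0.14 to 0.37), while Psme4 stood at -0.25 (-0.32 to -0.17). In the cardiomyocyte-rich spots of both sections the summed log2 ratio of the 16 19S genes between transgenic and control was 0.33. Spots were ranked within each section, and the marker sums of the whole sections differed, at 53352 CPM in control and 33953 CPM in transgenic tissue. The rich spots of the sections are thus not matched in marker level.

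**Figure D5:**
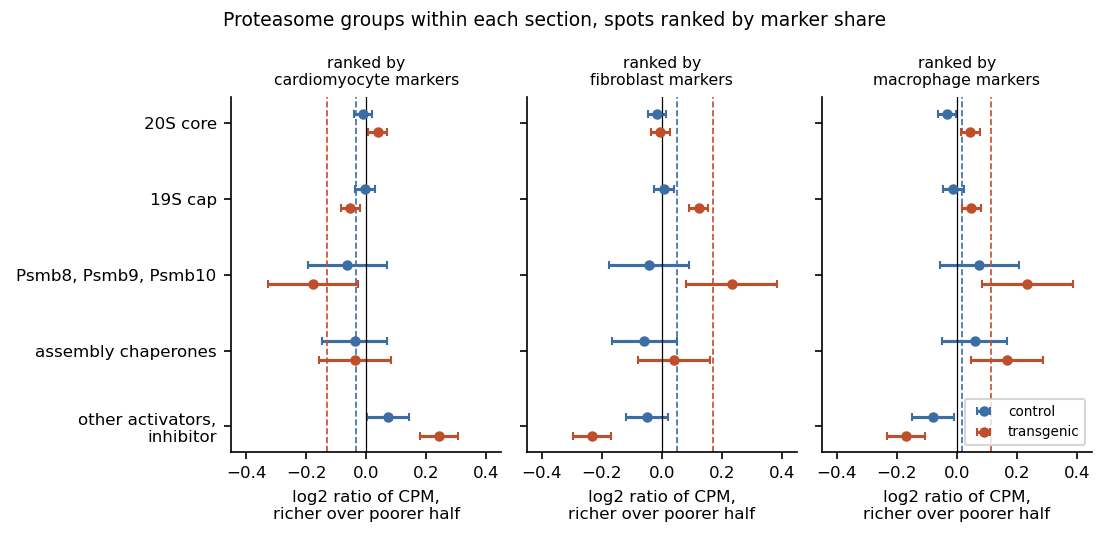
Log2 ratio of CPM between spots richer and poorer in a marker list, within the control (blue) and transgenic (red) section, for 5 groups of proteasome genes. Points are ratios with exact 95% intervals for counting error, the solid line is 0 and dashed lines are the medians of all genes in each section. Control points lie between -0.08 and 0.07, and in the transgenic section the other activators, led by Psme4, lie at 0.24 for cardiomyocyte and -0.23 for fibroblast markers.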

How the data were processed

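Spatial gene expression was measured in 1 control and 1 transgenic FFPE heart section. The deposited values were UMI counts of each gene in each spot, not normalized, made by the authors with Space Ranger 2.0.0 per the file headers, and Moran's I per gene, a deposited score used as given. The submitters' processing notes also name bcl2fastq and the builds GRCm39 and mm39. Probe counts limit comparison to the same gene between sections, and UMIs correct for PCR copies.

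UMIs of spots over tissue were summed per section and expressed as CPM of 14376300 control and 12953389 transgenic UMIs. Ratios used a floor of 3 UMIs per section. Intervals were exact Poisson, Clopper-Pearson or conditional binomial, and no test between genotypes was run. Only the conditional binomial interval was tried on simulated data. Those were Poisson counts, the model it assumes, so that spread beyond counting error was not covered. Quadrants split the tissue at its median row and column, and genes in the same range of mean CPM were described beside each group. The range ran from the lowest to the highest gene of a group, so that wide ranges were not matched in abundance. Edge spots lacked at least 1 of 6 neighbours over tissue. The proteasome genes and all lists were chosen with earlier results of these data known. Named were the immunoproteasome and constitutive catalytic genes, the extremes of each group and list, genes past 1.5-fold, the transcription list, Sem1 and Adrm1. Psmb2, Psmd14, Psmd2, Psmd1, Psmg3, Psmg4, Psmd9, Psme2b, Irf1, Jak1 and the genes of the spot rankings and of the motifs were added after their values were seen. Of the marker lists the sums are given. Psmb1, Psmd11, Pomp and Hba-a1 were not analysed here. Alternatives were TMM factors (edgeR 4.0.16), DESeq2 1.42.0 size factors, totals without the 50 most abundant genes, cardiomyocyte-rich, interior, deep or erythroid-poor spots, the mean over spots, 1 CPM added, other minimum counts, and Sem1 and Adrm1 counted in the cap. Python 3.11.15, numpy 2.4.6, scipy 1.17.1, pandas 2.3.3 and R 4.3.3 were used. Promoters came from RefSeq, GRCm38.p6.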

Additional observations from a re-analysis of the deposited data

How the results depend on the processing

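No paired analysis was possible because each genotype had 1 section. No value of at least 1.5-fold changed sign under any alternative run. Scaling moved the groups together. With TMM factors the summed log2 ratios were 0.19 for the 19S cap, -0.11 for the 20S core and -0.30 for the immunoproteasome, and the medians 0.13, -0.00044 and -0.28, with -0.16 for the assembly chaperones. With DESeq2 factors the sums were 0.20, -0.10 and -0.30 and the medians 0.14, 0.0062 and -0.27. Without the 50 most abundant genes the sums were 0.26, -0.041 and -0.23, and the medians of the core and the immunoproteasome 0.069 and -0.21. These scalings shift all genes alike, so that the distance of each group median from the all-gene median stayed the same by construction.

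In cardiomyocyte-rich spots the sums were 0.33 for the cap and 0.070 for the core, the immunoproteasome median was -0.44, the transgenic immunosubunit share 10.8% and the transgenic 19S share 50.1%. Those spots were ranked within each section and are not matched in marker level between sections. As a mean over spots the sums of cap and core were 0.31 and 0.0027. In the spots poorest in erythroid markers, an alternative chosen after seeing the data like the 10% erythroid limit and the 19S shares over other spots, they were 0.39 and 0.074. There the all-gene median was 0.25, and the median of the cap lay only 0.014 above it, against 0.084 in the main setting. Of the 16 cap genes, 8 lay above the all-gene median in those spots. With Sem1 and Adrm1 counted in the cap, also chosen after seeing the data, its sum was 0.14 and its share of cap and core UMIs 55.0% in the control and 56.6% in the transgenic section. Among genes with at least 200 UMIs the immunoproteasome median was -0.067, and the count at least 1.5-fold lower was 2 in place of 5, or 3 with 1 CPM added. Of 470 values of single genes under the alternatives, 379 stayed inside the interval of the main value and 91 moved out of it. The cause of these moves was not tested. Depth limits genes with few UMIs such as Psme2, Psma8, Adrm1 and Ubb, and 1 section per genotype limits every comparison.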

Other observations

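Genes next to the proteasome in the ubiquitin and antigen pathways gave values that the comparisons above did not use. Of 5 genes for ubiquitin and its activating enzymes, 4 had ratios above 1, with a median log2 ratio of 0.40. Among other genes in their range of mean CPM, 66.4% had ratios above 1 and the median was 0.24. Uba6, an activating enzyme, was the highest at 0.63 (0.33 to 0.94), and Ubb, a polyubiquitin gene, the lowest at -0.13 (-0.84 to 0.57) with 40 control and 33 transgenic UMIs.

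Class I antigen processing stood higher as a list than the immunoproteasome genes. The 8 genes had a median of 0.34, and 6 had ratios above 1. Other genes in their range of mean CPM had a median of 0.22, and 65.6% had ratios above 1. Tap1, the peptide transporter gene that shares a promoter region with Psmb9, had 89 control and 156 transgenic UMIs and stood at 0.96 (0.58 to 1.35), while Psmb9 stood at -0.01 (-0.30 to 0.28). Erap1, a peptide-trimming enzyme, was the lowest at -0.16 (-0.36 to 0.04). The 7 genes of the interferon-gamma pathway were mixed, with 4 ratios above 1, against 65.9% of other genes in their range of mean CPM. Their median was 0.35, but their summed log2 ratio was -0.59 (-0.64 to -0.53), at 522 and 347 CPM. They ranged from -2.05 (-2.17 to -1.94) for the receptor gene Ifngr2 to 1.69 (1.43 to 1.96) for Irf8. Jak1 stood at -0.65 (-0.74 to -0.55) and Irf1 at -0.56 (-0.79 to -0.34).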
